A study of Mus musculus with 21 samples.

Results

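The DNA replication and S phase genes examined here were 35 genes from a named list that is widely used to score cells in S phase, taken from the 17516 gene symbols of the tables. They were placed in 6 roles: 8 genes that load, start or restrain the replicative helicase (Mcm2, Mcm4, Mcm5, Mcm6, Cdc6, Cdc45, Gins2, Gmnn), 9 of the polymerase, clamp and fork (Pcna, Rfc2, Dscc1, Prim1, Pola1, Fen1, Rpa2, Tipin, Clspn), 3 of nucleotide supply (Tyms, Rrm1, Rrm2), 7 of histone supply and chromatin (Chaf1b, Nasp, Slbp, Casp8ap2, Uhrf1, Hells, Cdca7), 5 of repair (Ung, Exo1, Blm, Brip1, Rad51ap1) and 3 that control entry into or order within S phase (Ccne2, E2f8, Dtl). Single-cell RNA was measured in 21 libraries of mouse OT1 CD8 T cells, whose transgenic receptor is specific for an ovalbumin peptide. Naive OT1 cells were taken on day 0, and all other cells had been stimulated with anti-CD3/CD28 beads. Activated cells received no cytokine (days 3 and 5), or IL-2, IL-15 or IL-2v, which the treatment labels call mutant IL-2bg, each at 5 or 50 IU/mL and on days 3, 5 and 10. Groups were taken from the titles, since the treatment labels of the 50 IU/mL libraries of IL-2 and IL-15 read Interleukin-3 and Interleukin-16. Every condition was 1 library, so no difference between conditions has a replicate check, no p-value was computed, and intervals cover counting error only.

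Before a cell copies its DNA it loads the MCM helicase onto replication origins, a step in which CDC6 takes part and which geminin (Gmnn) blocks once S phase has begun. CDC45 and the GINS complex then switch the helicase on, primase and polymerase alpha start the new strands, and the PCNA ring, loaded by the RFC complex, keeps the polymerases on the template. The genes of this machinery are targets of E2F factors and rise together as cells pass from G1 into S phase, while genes of mitosis follow later. In CD8 T cells, receptor stimulation starts these divisions and cytokines that signal through the IL-2 receptor beta and gamma chains, IL-2 and IL-15 among them, sustain them.

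Letters that spell an E2F site stand in front of several members. A RefSeq table of the GRCm38.p6 build gave 29 promoters for 27 of the 35 members, each 250 bases before to 50 after a gene start. One spelling of the E2F site was searched on both strands, as TTTCCCGC, TTTCGCGC, TTTGCCGC or TTTGGCGC. It was found in 10 of 29 member promoters (34.5%), in 20 of 60 promoters of other replication genes (33.3%), in 3 of 50 promoters of G2 and mitosis genes (6%), in 269 of 5666 promoters of genes averaging 20 CPM or more (4.75%) and in 744 of 32851 promoters in the table (2.26%). Counted over the 250 bases before the start alone, the shares were 31.0% for members, 20% for other replication genes and 3.99% for genes averaging 20 CPM or more. Stretches before a RefSeq start of 7 of these genes, the ones with no base in a GENCODE exon, are shown to let the spellings be seen in their surroundings. E2F spellings are in capitals, the flanks are 26 bases and end at the base before the start, and all are written 5′ to 3′ on the gene's strand.
Mcm6: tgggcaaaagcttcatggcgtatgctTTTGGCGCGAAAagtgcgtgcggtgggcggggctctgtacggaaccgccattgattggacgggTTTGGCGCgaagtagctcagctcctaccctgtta
Mcm5: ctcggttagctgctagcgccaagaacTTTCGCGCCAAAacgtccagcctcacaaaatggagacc
Cdc6: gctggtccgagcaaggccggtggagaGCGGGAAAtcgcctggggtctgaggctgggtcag
Pola1: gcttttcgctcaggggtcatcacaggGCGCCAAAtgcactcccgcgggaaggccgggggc
Uhrf1: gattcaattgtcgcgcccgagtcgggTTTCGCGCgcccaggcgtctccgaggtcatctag
Dtl: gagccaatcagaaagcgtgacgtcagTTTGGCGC
Casp8ap2: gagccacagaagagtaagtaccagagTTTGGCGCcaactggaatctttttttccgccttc

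The Mcm6 stretch (at chr1:128359719-128359841 (minus strand)) held 3 spellings, 2 of which overlapped each other, and the Mcm5 stretch (at chr8:75109330-75109393 (plus strand)) held 2 that overlapped. The others held 1 spelling each, at chr11:98907987-98908046 (plus strand) for Cdc6, chrX:93632260-93632319 (minus strand) for Pola1, chr17:56304102-56304161 (plus strand) for Uhrf1, chr1:191575545-191575578 (minus strand) for Dtl and chr4:32615268-32615327 (plus strand) for Casp8ap2. In Dtl the spelling ended on the base before the start. The stretches of Uhrf1 and Cdc6 lie inside the gene as GENCODE gives it, in an intron ahead of a RefSeq start further downstream, and the other Uhrf1 promoter of the table held no spelling. Promoters of Cdca7 and Hells also held a spelling, in stretches with exon bases, and that of Clspn held one that lay after the start. These are not printed. The printed genes are not those that moved most alike, since Casp8ap2 is among them. Search for a CHR element, TTTGAA or TTCGAA, which is known from promoters of mitosis genes, found it in 5 of 29 member promoters (17.2%), 18.3% of those of other replication genes, 37 of 50 of the G2 and mitosis list (74.0%, or 44.0% before the start) and 19.2% of all promoters. The CCAAT box, searched as CCAAT, stood in 72.4% of member promoters, 46.7% of those of other replication genes, 76.0% of those of the G2 and mitosis list and 37.4% of all. These matches describe letters in a window, and no binding was measured.

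The libraries held 3250 to 7105 cells with medians of 3016 to 5065 unique molecular identifiers (UMIs, tags that mark single captured RNA molecules) per cell and totals of 10589950 to 32648496 UMIs. The library of 50 IU/mL IL-2 on day 5 had the lowest total, the fewest cells and the lowest median. Of T cell markers, a UMI of Cd3d was found in 93.0% to 99.5% of cells, of Cd3e in 72.0% to 92.8%, of Cd3g in 78.9% to 97.2%, of Cd8a in 37.0% to 74.2% and of Cd8b1 in 54.5% to 92.0%. Cd4 was found in at most 1.49% of cells. B cell markers were found in at most 0.0209% (Ms4a1), 0.489% (Cd79a) and 7.45% (Cd79b), and myeloid ones in at most 0.126% (Lyz2 and Csf1r), 1.66% (Itgam) and 7.39% (Cd68, in cells of 50 IU/mL IL-2 on day 10). Of natural killer markers, Ncr1 reached 0.0157% and Klrb1c 13.0%, and the globin genes of red cells stayed at or under 0.835%. The part of such cells in the results was not tested. Pairs of libraries shared 1 to 19 cell barcodes, at most 0.340% of the smaller library. Levels are given as UMIs per 1000000 UMIs of a library (CPM), which allow a gene to be followed across libraries but not one gene to be set against another, since no value per transcript length was used. In such sums over a library, fewer cells of a type and less RNA per cell cannot be told apart.

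Summed over the 35 members, the level was 612 CPM in naive cells (95% Poisson interval 601 to 623). On day 3 it was 2455 without cytokine, 2536 and 2907 under IL-2 (5 and 50 IU/mL), 2940.4 and 3988 under IL-2v, and 2354 and 2365 under IL-15. Day 3 therefore ran from 3.85 to 6.52 times the naive level, with 50 IU/mL IL-2v on top and both IL-15 libraries close to the one without cytokine. On day 5 the sums were 695 without cytokine, 602 and 1395 under IL-2, 1566 and 2527 under IL-2v, and 977 and 877 under IL-15. On day 10 they were 899 and 446 under IL-2, 2124 and 927 under IL-2v, and 568 and 712 under IL-15. Cells without cytokine on day 5 stood at 1.14 times the naive level, 5 IU/mL IL-15 and 50 IU/mL IL-2 on day 10 at 0.928 and 0.729 times it, and 5 IU/mL IL-2v on day 10 at 3.47 times it. In the order of all 21 sums, the Poisson intervals of neighbours overlapped in 6 places. These were 5 IU/mL IL-2 on day 5 with naive cells, no cytokine on day 5 with 50 IU/mL IL-15 on day 10, 50 IU/mL IL-15 on day 5 with 5 IU/mL IL-2 on day 10, the IL-15 doses of day 3, 50 IU/mL IL-2v on day 5 with 5 IU/mL IL-2 on day 3, and 50 IU/mL IL-2 with 5 IU/mL IL-2v on day 3.

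**Figure D1:**
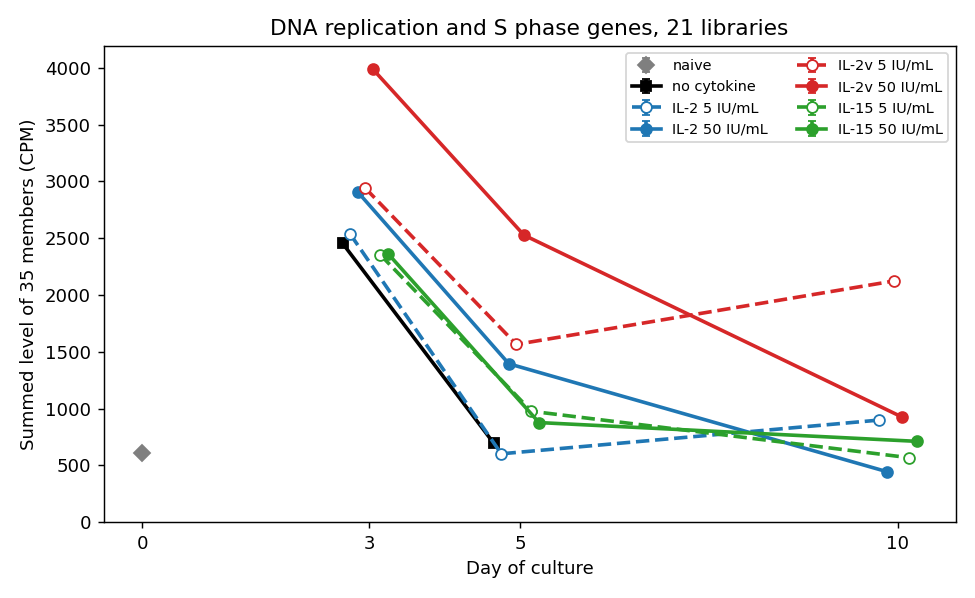
Summed level of the 35 members (y axis, CPM) against the day of culture (x axis) in the 21 libraries, shifted sideways within a day so that points can be told apart. Each point is 1 library, colours are cytokines, open points with broken lines are 5 IU/mL, filled points with full lines are 50 IU/mL, and bars are 95% Poisson intervals, mostly smaller than the points. The IL-2v libraries lie above their IL-2 partners at every day and dose, and the order of the doses turns round on day 10 for IL-2 and IL-2v.

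Among the members, 34 of 35 had their highest level in cells with 50 IU/mL IL-2v on day 3. The exception was Mcm6, a subunit of the helicase ring, at 236 CPM under IL-2 and 235 under IL-2v at 50 IU/mL on day 3. The share of all genes with their highest level there was not counted. The summed G2 and mitosis genes were highest in the same library too, at 9284 CPM, close to the 9246 of 50 IU/mL IL-2v on day 5. The lowest level fell in cells with 5 IU/mL IL-15 on day 10 for 16 members and in cells with 50 IU/mL IL-2 on day 10 for 15. The share of all genes with their lowest level in these libraries was not counted either. Across the 21 libraries the Pearson r of a member with the sum of the other members was at least 0.9 in 31 of 35, as a description over libraries that share cells of one culture scheme and differ in depth. It was lowest for Ung, a uracil glycosylase of base excision repair (0.80), Casp8ap2, which takes part in histone gene expression (0.88), Ccne2, cyclin E2 (0.89) and Tyms, thymidylate synthase (0.90). Among the non-members most like the sum, of 5469 genes averaging 20 CPM or more, were Mcm3 (r = 0.993), Atad5 (0.988), Rfc5 (0.987) and Rfc4 (0.984), against a median r of 0.26 over all of these genes. These 4 were on a list of 56 other replication genes. How many of the 5469 genes reached an r of 0.9 was not counted.

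**Figure D2:**
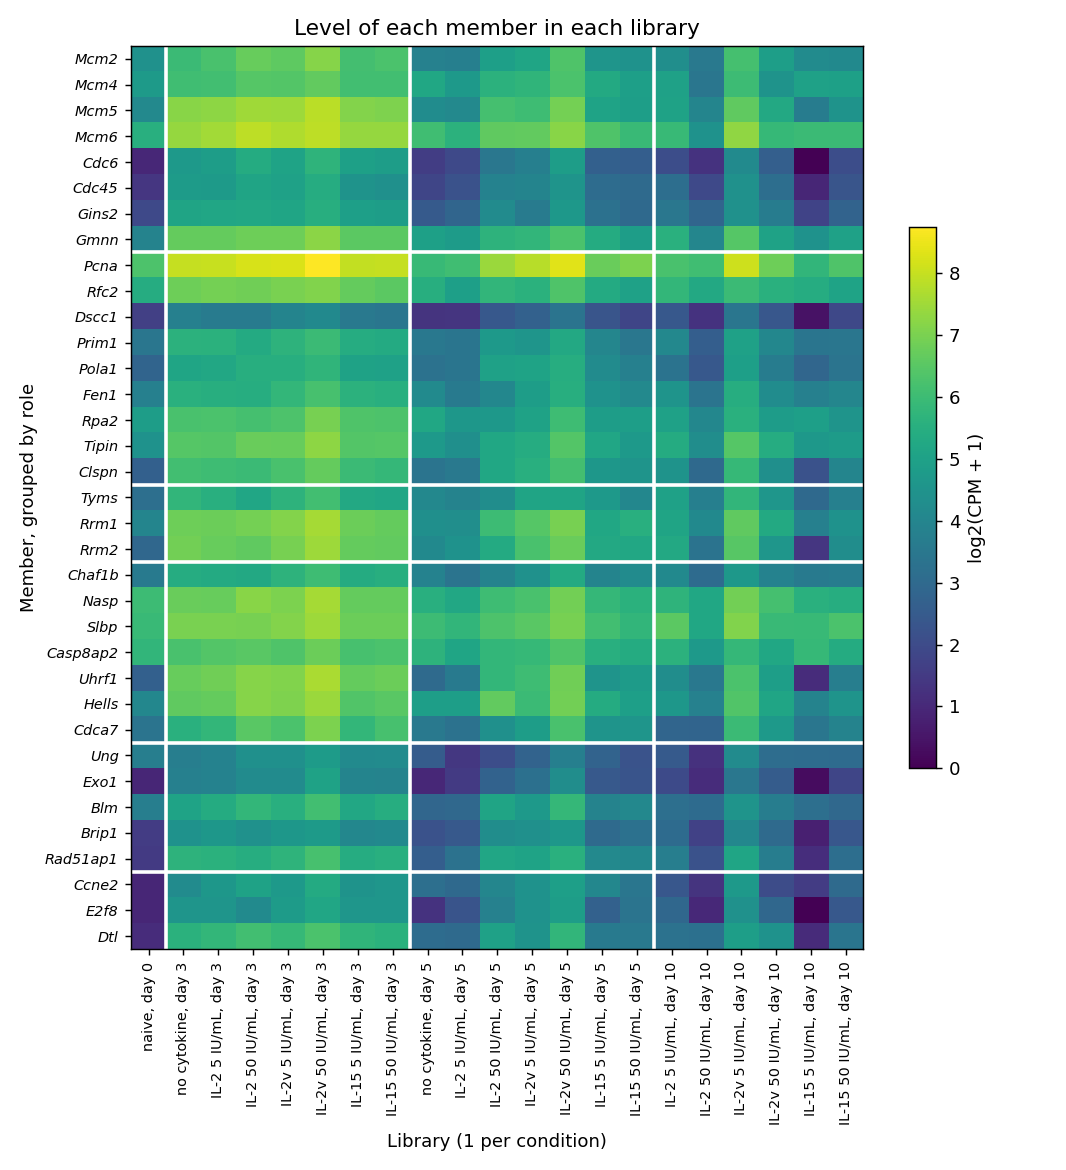
Level of each of the 35 members (rows, grouped by role from helicase genes at the top to control genes at the bottom) in each of the 21 libraries (columns, by day), as log2(CPM + 1) in colour. Yellow fields gather in the day 3 block and dark fields in the columns of naive cells, of 50 IU/mL IL-2 on day 10 and of 5 IU/mL IL-15 on day 10, where Cdc6 and E2f8 were at 0; colours compare libraries within a row and not genes with each other.

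Members differed in how far down they went. The 6 members with at least 40 CPM in naive cells, a limit chosen after the values were seen, were Mcm6, Pcna, Rfc2, Nasp, Slbp and Casp8ap2, and they made up 55.4% of the naive sum. Their part was 32.0% to 34.6% on day 3, and 56.0% in cells with 5 IU/mL IL-15 on day 10. At the other end, 8 members (Cdc6, Cdc45, Exo1, Brip1, Rad51ap1, Ccne2, E2f8, Dtl) were under 2 CPM in naive cells and together gave 1.67% of the naive sum, 8.98% to 9.46% of it on day 3 and, on day 10, 1.07% under IL-15 at 5 IU/mL. In naive cells 8 of 35 members were under 2 CPM, and on day 10 there were 11 such members under IL-15 at 5 IU/mL and 6 under IL-2 at 50 IU/mL. On day 5 there were 4 without cytokine and 3 under IL-2 at 5 IU/mL. In the other 16 libraries no member was.

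The helicase genes followed this course. Mcm6 (ENSMUSG00000026355, chr1:128331590-128359664, minus strand, GRCm38, GENCODE) was at 44.8 CPM in naive cells, and on day 3 at 163 without cytokine, 183 and 236 under IL-2 (5 and 50 IU/mL), 208 and 235 under IL-2v, and 164 and 163 under IL-15. By day 5 the level was 66.7 without cytokine, 48.8 and 97.9 under IL-2, 100.3 and 147 under IL-2v, and 80.1 and 59.3 under IL-15. Day 10 gave 59.1 and 21.01 under IL-2, 156 and 56.7 under IL-2v, and 61.8 and 61.9 under IL-15. All day 3 libraries were above all libraries of day 5 and day 10, and 5 IU/mL IL-2v on day 10 came closest to them. Cdc6, the loader of the helicase, was at 0.975 CPM in naive cells, 24.9 to 50.1 on day 3, 1.99 to 28.3 on day 5 and 0 to 17.0 on day 10. It had no UMI in 23311265 with 5 IU/mL IL-15 on day 10, which allows a level of up to 0.129 CPM (3 counts), and its higher values on days 5 and 10 were those of 50 IU/mL IL-2v (28.3 on day 5) and 5 IU/mL IL-2v (17.0 on day 10).

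At the fork, Pcna (ENSMUSG00000027342, chr2:132249162-132253314, minus strand), which encodes the sliding clamp, was at 78.1 CPM in naive cells, and on day 3 at 254 without cytokine, 261 and 294 under IL-2 (5 and 50 IU/mL), 308 and 429.5 under IL-2v, and 248 and 251 under IL-15. Day 5 values were 58.9 without cytokine, 65.5 and 170.2 under IL-2, 222 and 328 under IL-2v, and 108 and 128 under IL-15. Day 10 gave 75.2 and 65.3 under IL-2, 269.9 and 111 under IL-2v, and 52.7 and 80.4 under IL-15. The IL-2v libraries of day 5 and 5 IU/mL IL-2v on day 10 lay within or near the range of day 3, and Pcna was below its naive level without cytokine on day 5, with 5 IU/mL IL-2 on day 5, and on day 10 at both doses of IL-2 and in the 5 IU/mL library of IL-15. The mouse genome has named Pcna pseudogenes, and also ones of Tyms and Nasp, to which reads of these genes could be lost. Exons of Fen1 and Gins2 overlap an exon of another gene on the opposite strand over 78.8% and 67.3% of their length, and the use of strand in counting is not given in the sources used here, so both are uncertain.

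Of the nucleotide genes, Rrm1 (ENSMUSG00000030978, chr7:102441695-102469771, plus strand), the large subunit of ribonucleotide reductase, was at 14.9 CPM in naive cells, and on day 3 at 111 without cytokine, 109.8 and 119 under IL-2 (5 and 50 IU/mL), 137 and 191 under IL-2v, and 109 and 103 under IL-15. On the fifth day the level was 19.6 without cytokine, 19.3 and 63.4 under IL-2, 85.4 and 124 under IL-2v, and 36.5 and 44.6 under IL-15. Day 10 gave 33.6 and 16.8 under IL-2, 95.9 and 38.8 under IL-2v, and 13.1 and 21.1 under IL-15. The 4 highest libraries outside day 3 were 50 IU/mL IL-2v on day 5, 5 IU/mL IL-2v on day 10, 5 IU/mL IL-2v on day 5 and 50 IU/mL IL-2 on day 5. Rrm2, the small subunit of the same enzyme, ran from 1.63 CPM with 5 IU/mL IL-15 on day 10 to 177 with 50 IU/mL IL-2v on day 3.

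In the chromatin group, Slbp (ENSMUSG00000004642, chr5:33634952-33652574, minus strand), which binds the stem loop of histone messages, was at 59.3 CPM in naive cells, and on day 3 at 127 without cytokine, 125 and 123 under IL-2 (5 and 50 IU/mL), 140.2 and 177 under IL-2v, and 108 and 109 under IL-15. Levels on day 5 were 63.5 without cytokine, 53.1 and 78.2 under IL-2, 89.4 and 122 under IL-2v, and 67.7 and 52.6 under IL-15. Day 10 gave 93.3 and 36.1 under IL-2, 134 and 60.6 under IL-2v, and 58.7 and 76.9 under IL-15. It kept within 36.1 to 177 CPM, a 4.91-fold range. Uhrf1, which brings the maintenance methyltransferase to newly copied DNA, had a 171-fold range, from 1.16 CPM (27 UMIs) with 5 IU/mL IL-15 on day 10 to 198 with 50 IU/mL IL-2v on day 3. It was at 5.41 in naive cells, 103 to 198 on day 3, 7.17 to 114 on day 5 and 1.16 to 76.4 on day 10.

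In the repair group, Rad51ap1 (ENSMUSG00000030346, chr6:126923050-126939587, minus strand), which acts in homologous recombination, was at 1.79 CPM in naive cells, and on day 3 at 49.3 without cytokine, 47.4 and 42.6 under IL-2 (5 and 50 IU/mL), 50.1 and 72.8 under IL-2v, and 41.6 and 44.5 under IL-15. Its day 5 levels were 5.06 without cytokine, 8.73 and 34.9 under IL-2, 32.8 and 46.2 under IL-2v, and 16.4 and 15.7 under IL-15. Day 10 gave 12.4 and 3.63 under IL-2, 34.6 and 12.1 under IL-2v, and 1.20 and 8.03 under IL-15. With 50 IU/mL IL-2v on day 5 it was still within the day 3 range. Ung was almost unchanged at activation, with 12.5 CPM in naive cells and 12.5 on day 3 without cytokine, and it peaked at 27.2 with 50 IU/mL IL-2v on day 3.

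Of the control genes, Dtl (ENSMUSG00000037474, chr1:191537356-191575544, minus strand), a substrate adaptor of the CUL4 ubiquitin ligase that acts on PCNA-bound proteins, was at 1.14 CPM in naive cells, and on day 3 at 46.9 without cytokine, 54.4 and 67.5 under IL-2 (5 and 50 IU/mL), 56.5 and 77.1 under IL-2v, and 51.8 and 47.5 under IL-15. The day 5 level was 7.48 without cytokine, 7.18 and 30.8 under IL-2, 21.4 and 53.6 under IL-2v, and 11.1 and 10.6 under IL-15. Day 10 gave 8.83 and 8.36 under IL-2, 29.1 and 21.1 under IL-2v, and 1.12 and 9.57 under IL-15. The library of 50 IU/mL IL-2 exceeded that of 5 IU/mL IL-2v on day 3 and on day 5, and on day 10 it was the lower one. E2f8, a repressor of E2F targets, ran from 0 with 5 IU/mL IL-15 on day 10 to 34.97 with 50 IU/mL IL-2v on day 3.

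For comparisons, differences of single genes were taken as log2(CPM + 1), a scale that understates changes of low genes. Differences of sums, over the members, a role or the G2 and mitosis genes, were log2 ratios of CPM with no 1 added. Genes that averaged 20 CPM or more in either arm were used. A gene counted as at least 2-fold different where the log2 difference was 1 or more in size. The higher arm alone can bring a gene past this level filter, so counts of members at 20 CPM lean towards that arm. Medians over the 35 members do not use the filter. Activation was read from cells without cytokine on day 3 against naive cells. All 35 differences were positive, with Ung lowest at 0.01 and below the level filter. Of the 31 members that reached 20 CPM, 29 were at least 2-fold higher, where 11.1% of all 6171 genes were. In naive cells 10 of the 31 reached that level. The median log2 difference was 2.32 over the 35 members and -0.11 over all genes. Dtl (4.49), Rad51ap1 (4.17), Uhrf1 (4.04) and Rrm2 (3.98) had the largest differences and Casp8ap2 (0.49), Nasp, a histone chaperone (0.78), Slbp (1.09) and Mcm4 (1.28) the smallest. By role, the sums were higher by 4.87 on the log2 scale for control genes, 3.25 for nucleotide supply, 2.29 for the helicase, 2.12 for repair, 1.84 for the fork and 1.47 for chromatin. Of 47 other replication genes at 20 CPM, 33 were at least 2-fold higher and none lower.

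Without cytokine the rise was lost by day 5. All 35 members were lower than on day 3, with a median over the 35 of -2.09. Of the 31 members at 20 CPM, 28 were at least 2-fold lower, against 9.47% of all genes. On day 5 itself, 11 of the 31 reached 20 CPM. Uhrf1 (-3.69), E2f8 (-3.27), Cdc6 (-3.12) and Rad51ap1 (-3.05) had the lowest differences and Casp8ap2 (-0.58), Mcm4 (-0.85), Slbp (-0.99) and Rpa2, a subunit of the single-strand binding complex (-1.01), the highest. Among cells lacking any UMI of Mki67 and Top2a, genes of cycling cells, 14 members reached the level filter in each comparison. Of these, 3 were at least 2-fold higher at activation (7.86% of all genes in those cells) and 3 at least 2-fold lower on day 5 (4.99%). A cell can lack a UMI of Mki67 and Top2a and still be cycling.

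Whether a cytokine added to the beads changed these genes on day 3 was read against the same library without cytokine, which all 6 comparisons share. With 50 IU/mL IL-2v, all 35 members were higher and 6 of 34 at 20 CPM were at least 2-fold higher (7.83% of all genes). The 6 were Mcm2, Cdca7, Ung, Exo1, Blm and Ccne2. Without cytokine 31 members reached 20 CPM, and Ung, Exo1 and Ccne2 passed the level filter only through the IL-2v library. The calls among the 31 were Mcm2, Cdca7 and Blm, so no excess over all genes is read from the 6. The median log2 difference was 0.64 over the 35 members and 0.21 over all genes. Cdca7, a chromatin factor of the HELLS complex, had the largest difference (1.47). The count was 3 with TMM scaling (4.87% of all genes) and 2 with a pseudocount of 10 (4.38%). No member was 2-fold higher with 5 IU/mL IL-2 (0.142% of all genes), 50 IU/mL IL-2 (6.45%), 5 IU/mL IL-2v (0.211%), 5 IU/mL IL-15 (0.142%) or 50 IU/mL IL-15 (0.819%). The medians over the 35 members in these 5 were 0.05, 0.26, 0.26, -0.04 and -0.02, and those over all genes 0.09, 0.19, 0.09, 0.07 and 0.10. Tyms was the member with the lowest difference in all 5, at -0.27, -0.59, -0.12, -0.50 and -0.60, with 53.8 CPM without cytokine. Among cells lacking any UMI of Mki67 and Top2a, day 3 gave more calls, 30 of 32 members for 50 IU/mL IL-2v (16.6% of all genes), 16 of 25 for 50 IU/mL IL-2 (11%), 4 of 20 for 5 IU/mL IL-2v (0.576%) and 1 of 18 for 50 IU/mL IL-15 (1.33%).

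On day 5 the cytokines separated. Again all 6 comparisons share 1 library without cytokine, where the members had dropped and 11 of them reached 20 CPM. The other members counted here passed the level filter only through the cytokine library. With 50 IU/mL IL-2v, 28 of 32 members at 20 CPM were at least 2-fold higher (21.1% of all genes) and the median over the 35 was 2.16. Not called among the 11 members at 20 CPM without cytokine were Rfc2, Rpa2, Slbp and Casp8ap2. At 5 IU/mL, IL-2v gave 17 of 28 (9.75% of all genes) and 1.30, and IL-2 at 50 IU/mL gave 13 of 23 (16.5%) and 1.19. Of the 11 members at 20 CPM without cytokine, Pcna and Hells were the only ones called with either. Among the largest differences with 50 IU/mL IL-2v were Uhrf1 (3.81), E2f8 (3.57), Cdc6 (3.29) and Blm, a RecQ helicase (2.96). IL-15 gave 3 of 20 members at 5 IU/mL (1.42% of all genes), which were Uhrf1, Clspn and Rrm2. At 50 IU/mL it gave 6 of 18 (5.82%), and the medians over the 35 were 0.77 and 0.49. Of the 11 members at 20 CPM without cytokine, none was called at 5 IU/mL and only Pcna at 50 IU/mL. The 3 calls at 5 IU/mL became 0 without cells above 2 times the median UMIs (0.726% of all genes) or with a pseudocount of 10 (0.642%), and 7 with totals that leave out ribosomal protein and mitochondrial genes (2.09%). With the pseudocount of 10, those at 50 IU/mL became 2 (3.77%) and those of 5 IU/mL IL-2v became 10 (6.8%). Among cells lacking any UMI of Mki67 and Top2a the members at least 2-fold higher were 10 of 18 for 50 IU/mL IL-2v (14.8% of all genes in those cells), 0 of 10 for 5 IU/mL IL-2v (6.52%) and 2 of 11 for 50 IU/mL IL-2 (13.7%), where 1 of 11 was at least 2-fold lower (8.97%). IL-15 gave 0 of 10 there at 5 IU/mL (0.421%) and at 50 IU/mL (4.09%). The summed level with IL-15 then turned below that without cytokine, from 0.49 to -0.13 at 5 IU/mL and from 0.34 to -0.31 at 50 IU/mL on the log2 scale. The G2 and mitosis genes were called at higher shares than the members in all 6 comparisons of day 5, at 49 of 50 and 43 of 46 for 50 and 5 IU/mL IL-2v, 41 of 47 and 15 of 34 for IL-2, and 26 of 38 and 22 of 35 for IL-15. With 5 IU/mL IL-2 no member of 12 was 2-fold higher (2.14% of all genes). Of the 35, 15 were higher and 20 lower, and the median was -0.09, where that over all genes was -0.13. Rpa2 was among the 4 lowest members in all 6, at -0.61 and -0.55 under IL-2, -0.19 and 0.81 under IL-2v, and -0.36 and -0.31 under IL-15 (5 and 50 IU/mL).

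IL-2v and IL-2 were set side by side in 6 pairs of equal day and dose, and a gene was called where all 6 had 1 sign and the median log2 difference was at least 1. All 35 members had a positive median and it was 0.90 over the 35 members and 0.06 over all genes. Of 31 members at 20 CPM, 12 were called higher and none lower, where 1.04% of all genes were called higher. Some of the 31 averaged 20 CPM only with IL-2v and passed the level filter through it. In the contrast of IL-15 and IL-2, 26 members passed. By sign alone 28 of the 31 were higher in all 6 pairs, a count for which the share of all genes was not taken. The 12 were Cdca7, Mcm2, Cdc6, E2f8, Uhrf1, Rrm2, Clspn, Rad51ap1, Tipin, Rrm1, Mcm5 and Dtl. Of these, Cdc6 passed the level filter only through IL-2v, and a full split of the 12 by arm was not made. Of 46 other replication genes 7 were called higher, and of 46 G2 and mitosis genes 2. The highest of the other replication genes were Mcm3 (1.23), Asf1b (1.19) and Wdhd1 (1.18), and the lowest Donson (0.02), Orc4 (0.04) and Orc3 (0.11).

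Cdca7 had the largest median. Its levels with IL-2 were 53.9 and 89.4 CPM on day 3, 8.78 and 20.1 on day 5, and 6.28 and 6.01 on day 10 at 5 and 50 IU/mL, and with IL-2v they were 76.6 and 129, 27.9 and 74.2, and 60.9 and 25.8. The differences ran from 0.50 to 3.09 with a median of 1.70. Mcm2, a helicase subunit, was at 74.2 and 105, 12.7 and 29.7, and 18.9 and 10.6 CPM with IL-2, and at 95.2 and 143, 34.7 and 79.4, and 71.5 and 29.2 with IL-2v, with a median difference of 1.38 (0.36 to 1.87). For both genes the IL-2v library was the higher of each pair and the gap was wider on days 5 and 10 than on day 3. Cdc6 had a median of 1.37 (0.20 to 2.10) and E2f8 of 1.26 (0.24 to 2.20). At the low end were Rfc2, a clamp loader subunit, with 0.25 (0.05 to 0.64), Casp8ap2 with 0.39 (-0.05 to 0.72), Slbp with 0.58 (0.16 to 0.74) and Gins2 with 0.61 (-0.01 to 0.96).

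**Figure D3:**
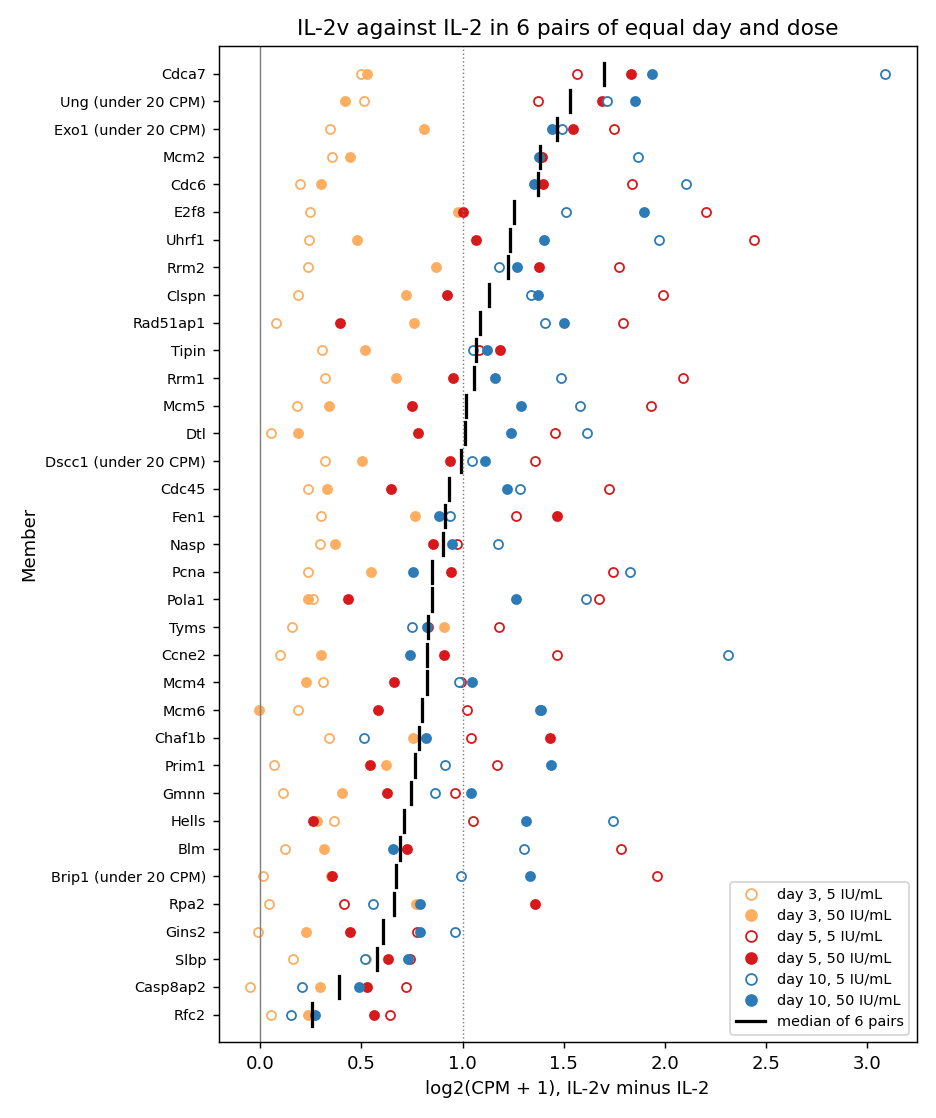
Difference of IL-2v and IL-2 (x axis, log2 of CPM + 1, IL-2v minus IL-2) for each member (rows, ordered by the median) in 6 pairs of libraries of equal day and dose. Colours are days, open points 5 IU/mL and filled points 50 IU/mL, black bars are the median of the 6 pairs, and the dotted line marks a 2-fold difference; the medians over the members were lowest for the day 3 pairs (0.24 and 0.44), and Cdca7 has the largest median (1.70) and Rfc2 the smallest (0.25).

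By pair, no member was 2-fold higher with IL-2v on day 3, at 5 IU/mL (0.0346% of all genes) or at 50 IU/mL (1.22%), with medians over the 35 of 0.24 and 0.44. On day 5 it was 21 of 28 at 5 IU/mL (7.29% of all genes) and 10 of 32 at 50 IU/mL (5.73%), with medians of 1.38 and 0.86. On day 10 it was 19 of 30 at 5 IU/mL (6.78%) and 12 of 19 at 50 IU/mL (2.77%), with medians of 1.31 and 1.22. In the IL-2 libraries, 11 (5 IU/mL) and 23 (50 IU/mL) members reached 20 CPM on day 5, and 17 and 6 on day 10. The other members counted passed the level filter only through IL-2v. Those called among the 11 were Mcm6, Pcna, Hells and Rrm2, and among the 6 it was Mcm6. All 35 members were higher with IL-2v in each of these 4 later pairs. The medians over all genes there were 0.20 and 0.16 on day 5 and -0.15 and 0.06 on day 10 (5 and 50 IU/mL). Every role took part. For the role sums, the median over the 6 pairs was 1.20 for control genes, 1.13 for nucleotide supply and 1.10 for repair. It was 1.02 for the helicase, 0.90 for chromatin and 0.89 for the fork, with no pair below 0.11 in any role. The number called depended on the settings: it was 7 with TMM scaling (0.621% of all genes), 1 with a pseudocount of 10 (0.154%), 5 without day 5 (0.482%) and 3 without day 10 (0.437%), with none called lower.

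IL-15 and IL-2 did not part in 1 direction. None of 26 members at 20 CPM was called, where 0.49% of all genes were called higher and 1.7% lower, and the median over the 35 was -0.12. The summed level was higher with IL-15 at 5 IU/mL on day 5 (977 against 602 CPM) and at 50 IU/mL on day 10 (712 against 446). With IL-2 it was higher in the other 4 pairs, among them 50 IU/mL on day 5 (1395 against 877) and 5 IU/mL on day 10 (899 against 568). The last pair, at -0.66 on the log2 scale for IL-15 against IL-2, turned to 0.026 without cells above 2 times the median UMIs and to 0.29 among cells lacking any UMI of Mki67 and Top2a. IL-2v against IL-15 gave positive medians for all 35 members, with a median of 0.79 over the 35 and 0.10 over all genes. Called higher were 3 of 31 (Uhrf1 1.34, Rrm1 1.05, E2f8 1.02), where 2.48% of all genes were. Members such as Cdc6 averaged 20 CPM only with IL-2v and passed the level filter through it. By sign alone 25 of the 31 were higher in all 6 pairs, without a like share of all genes. Of the G2 and mitosis genes 12 of 46 were called higher, with a median of 0.87. The members' count was 16 without day 3 (6.33% of all genes), 16 without cells above 2 times the median UMIs (3.86%), and 1 with TMM scaling (1.51%). The widest pairs were 50 IU/mL on day 5 and 5 IU/mL on day 10. At least 2-fold higher with IL-2v were 31 of 32 members (8.74% of all genes) and 26 of 30 (10.7%). In the IL-15 libraries of these pairs, 18 and 10 members reached 20 CPM. The others counted passed the level filter only through IL-2v. Not called were Casp8ap2 among the 18, and Mcm4, Rfc2, Rpa2 and Casp8ap2 among the 10. These 3 contrasts use the same libraries and are not independent of each other.

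The dose effect turned with time for IL-2 and IL-2v. Summed levels with 50 IU/mL IL-2 stood at 1.15 times those with 5 IU/mL on day 3, 2.32 times on day 5 and 0.496 times on day 10. For IL-2v the ratios were 1.36, 1.61 and 0.437, and for IL-15 1.005, 0.898 and 1.25. The IL-15 order was the opposite on day 5 without cells above 2 times the median UMIs (log2 from -0.15 to 0.27) and on day 10 among cells lacking any UMI of Mki67 and Top2a (from 0.33 to -0.43). On day 5, 13 of 23 members were at least 2-fold higher with 50 than with 5 IU/mL IL-2 (14.1% of all genes). For IL-2v it was 7 of 32 (4.21%). In the 5 IU/mL libraries of day 5, 11 members reached 20 CPM with IL-2 and 28 with IL-2v. The other members counted passed the level filter only through 50 IU/mL. Of the 11, Pcna and Hells were the only ones called. On day 10 the order was the opposite, with all 35 members lower at 50 IU/mL of either cytokine. At least 2-fold lower were 10 of 17 with IL-2 (14.5% of all genes) and 21 of 30 with IL-2v (6.14%). At 50 IU/mL on that day, 6 members reached 20 CPM with IL-2 and 19 with IL-2v. The others counted passed the level filter only through 5 IU/mL. Among the 6, Mcm6 and Slbp were the ones called. The medians over all genes were then -0.30 for IL-2 and -0.13 for IL-2v. With such a turn no member was called over the 3 days for IL-2 (4.29% of all genes higher, 2.7% lower) or IL-2v (2.38% and 0.626%). None was called for IL-15 either (0.869% and 0.181%), where the median over the 35 members was -0.04. Without day 10, 7 of 30 members were called higher for IL-2 (5.86% of all genes) and 1 of 33 for IL-2v (2.4%).

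Over time, the members were lower on day 5 than on day 3 in every pair of equal cytokine and dose. All 35 medians were negative, and the median over all genes was -0.10. Of 32 members at 20 CPM, 21 were called lower, where 2.22% of all genes were. By sign alone 32 of 32 were lower in all 6 pairs, without a like share of all genes. Cdc6 (-2.07), Mcm5 (-1.73), Dtl (-1.71) and Mcm2 (-1.68) had the lowest medians and Brip1, a helicase that works with BRCA1 (-0.57), Pola1, the catalytic subunit of polymerase alpha (-0.66), Slbp (-0.66) and Casp8ap2 (-0.69) the highest. The number of members at least 2-fold lower was 32 of 32 with 5 IU/mL IL-2 (11.6% of all genes), 19 of 32 with 50 IU/mL IL-2 (6.16%), 17 of 33 with 5 IU/mL IL-2v (1.97%), 23 of 31 with 5 IU/mL IL-15 (8.3%) and 29 of 31 with 50 IU/mL IL-15 (3.41%). With 50 IU/mL IL-2v it was 1 of 34 (0.495%), and the median over the 35 there was -0.70. With a pseudocount of 10 the number called over the 6 pairs was 13 (0.778% of all genes).

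From day 5 to day 10 no member of 25 was called lower (1.62% of all genes). At 50 IU/mL, members at least 2-fold lower numbered 19 of 23 for IL-2 (19.4% of all genes) and 27 of 32 for IL-2v (11.6%). IL-15 gave 2 of 18 at 50 IU/mL (4.44%) and 9 of 20 at 5 IU/mL (3.46%). In the same order, 6, 19, 13 and 10 members reached 20 CPM on day 10. The others counted passed the level filter only through day 5. In the 5 IU/mL libraries of IL-2 and IL-2v most members were higher on day 10, 31 and 30 of 35. The medians were 0.615 and 0.423 over the 35 members and 0.256 and -0.099 over all genes. At least 2-fold higher were 2 of 17 (4.62% of all genes) and 2 of 30 (1.98%), and the summed level was 1.49 and 1.36 times that of day 5. Uhrf1 with IL-2v showed both courses, from 65.2 to 76.4 CPM at 5 IU/mL and from 114 to 28.7 at 50 IU/mL.

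How many cells carried these messages was read after thinning cells at random to 2000 UMIs and counting those with at least 3 member UMIs. Shallower cells were left out, 57 to 393 per library and most in that of 50 IU/mL IL-2 on day 5 (393 of 3250), so the shares are of the deeper cells. In the naive library 10.2% of cells reached the limit (Clopper-Pearson 95% interval 9.35% to 11.1%), and 14.5% of its member UMIs lay in the few cells with a UMI of Mki67 or Top2a. On day 3 the share was 54.1% without cytokine, 57.9% and 76.1% under IL-2 (5 and 50 IU/mL), 66.3% and 93.3% under IL-2v, and 49.9% and 53.6% under IL-15. On day 5 it was 11.1% without cytokine, 8.34% and 34.4% under IL-2, 29.3% and 62.5% under IL-2v, and 14.4% and 14.6% under IL-15. Nearly all cells were thus positive with 50 IU/mL IL-2v on day 3, and 5 IU/mL IL-2 on day 5 was below the naive share at this limit, but above it at a limit of 5 UMIs (2.87% against 1.16%). Day 10 gave 12.4% and 7.78% under IL-2, 42.2% and 20.7% under IL-2v, and 11.6% and 10.7% under IL-15. Both IL-2v libraries lay above all others on day 10, and the intervals of both IL-15 libraries overlapped that of naive cells. At a limit of 5 UMIs they did so for 5 IU/mL IL-15 (0.816%) but not for 50 IU/mL IL-15 (4.54%). Unthinned, the naive share was 33.6% at a median depth of 3799 UMIs and that of 5 IU/mL IL-15 on day 10 was 42.1% at 3927.

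**Figure D4:**
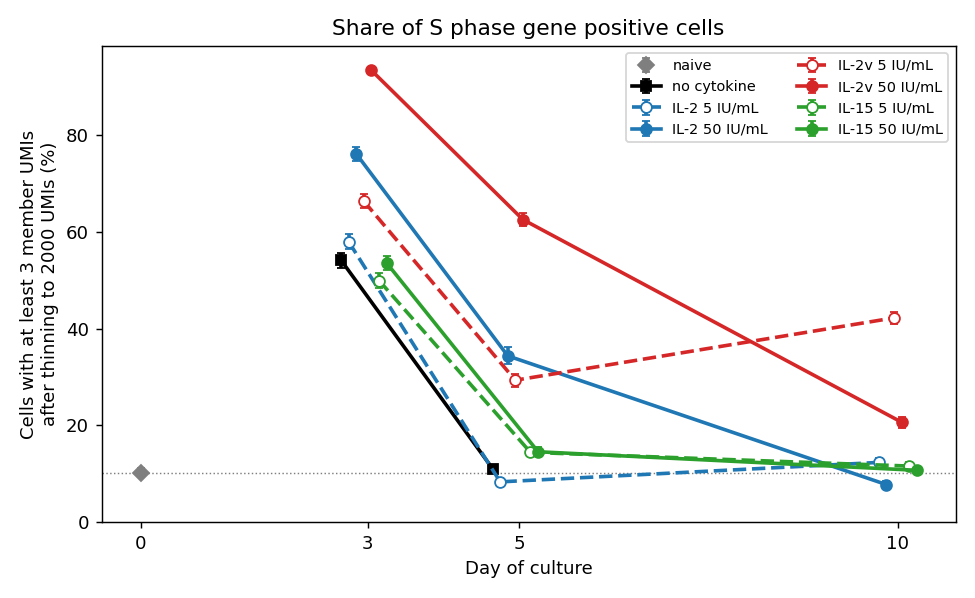
Share of cells with at least 3 UMIs of the 35 members after thinning to 2000 UMIs (y axis, percent) against the day of culture (x axis), with points as single libraries, colours as cytokines, open points 5 IU/mL and filled points 50 IU/mL. Bars are 95% Clopper-Pearson intervals over cells, which cover counting error only, and the dotted line is the naive share of 10.2%; with 50 IU/mL IL-2v on day 3 the share reached 93.3%.

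The IL-2v share was above the IL-2 share with intervals apart in 6 of 6 pairs, and above the IL-15 share in 6 of 6. IL-15 against IL-2 gave 2 pairs higher and 3 lower, and 3 higher and 3 lower without cells above 2 times the median UMIs. The pair that changed, 5 IU/mL on day 10 (11.6% with IL-15 and 12.4% with IL-2), also turned with the limit, at 0.816% and 5.33% for at least 5 UMIs and 66.6% and 61.5% for at least 1. From day 3 to day 5 the share was lower in 6 of 6 pairs of equal cytokine and dose. From day 5 to day 10 it was higher in 2, the 5 IU/mL libraries of IL-2 and IL-2v, and lower in 4, or in 3 without those large cells. The pair that changed was 5 IU/mL IL-15, at 10.4% on day 5 and 11.7% on day 10 with overlapping intervals. The number of member UMIs in a positive thinned cell also varied, from a mean of 3.39 with 5 IU/mL IL-15 on day 10 to 8.54 with 50 IU/mL IL-2v on day 3. On day 5 the mean was 6.96 for IL-2v at 50 IU/mL and 5.88 for IL-2 at that dose.

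Cells with many member UMIs were rarest with 5 IU/mL IL-15 on day 10 and in naive cells. At least 5 member UMIs were held by 0.816% and 1.16% of their thinned cells, and by 2.37% to 80.7% in the other 19 libraries. The intervals of the first 2 overlapped (0.593% to 1.09% and 0.870% to 1.52%). With 5 IU/mL IL-15 on day 10 no thinned cell held more than 8 member UMIs. The highest cell of each of the other 20 libraries held 16 to 35. A UMI of Mki67 or Top2a was found in 5.21% of cells with 5 IU/mL IL-15 on day 10 and in 3.01% of naive cells, and in 13.1% to 86.9% elsewhere. In that IL-15 library, cells with such a UMI carried 561 CPM of the members and cells without it 568, a ratio of 0.987. In the other 20 libraries the ratio was above 1, from 1.20 with 50 IU/mL IL-2v on day 3, where cells without such a UMI were also high at 3375 CPM, to 4.99 with 5 IU/mL IL-2v on day 5.

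The members were last set against 51 genes of G2 and mitosis, which act later in the same division cycle. The summed members divided by the summed G2 and mitosis genes, both in CPM, gave a ratio of 0.421 in naive cells. Both lists had a base level there. Of thinned naive cells, 44.7% held at least 3 UMIs of the G2 and mitosis genes and 10.2% at least 3 of the members. A UMI of Mki67 or Top2a was found in 3.01% of naive cells. The ratio is thus no measure of the part of cells in S phase, and the share of this base level in it was not tested. On day 3 it was 0.305 without cytokine, 0.305 and 0.393 under IL-2 (5 and 50 IU/mL), 0.335 and 0.430 under IL-2v, and 0.313 and 0.322 under IL-15. On day 5 it was 0.290 without cytokine, 0.172 and 0.198 under IL-2, 0.214 and 0.273 under IL-2v, and 0.245 and 0.184 under IL-15. Day 10 gave 0.258 and 0.335 under IL-2, 0.312 and 0.332 under IL-2v, and 0.437 and 0.378 under IL-15. With cytokine the ratio was lower on day 5 than on day 3 in 6 of 6 pairs and higher on day 10 than on day 5 in 6 of 6.

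**Figure D5:**
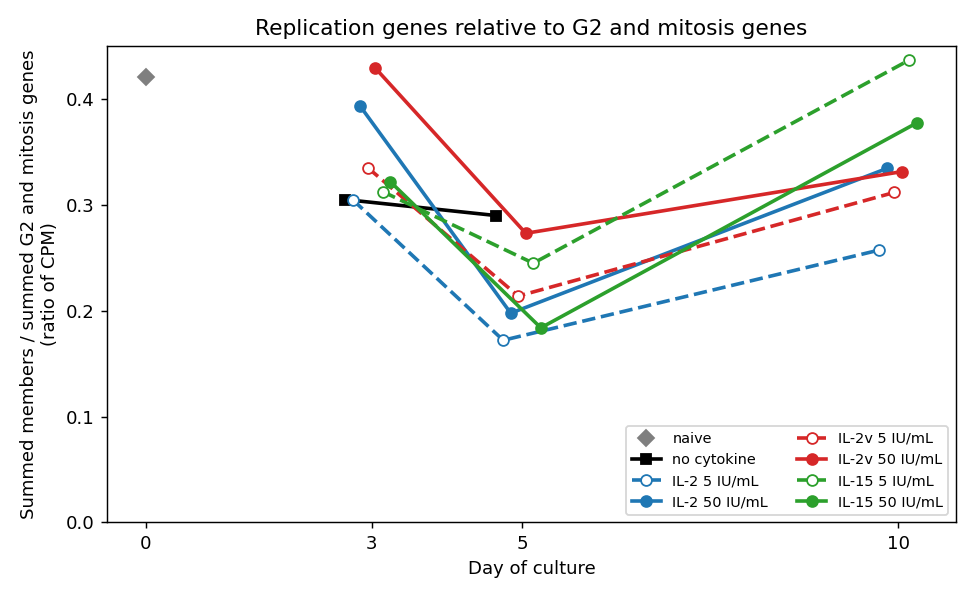
Summed members divided by the summed G2 and mitosis genes (y axis, ratio of CPM) against the day of culture (x axis), 1 point per library, colours as cytokines, open points 5 IU/mL and filled points 50 IU/mL. Each of the 6 cytokine lines has its lowest point on day 5, between 0.172 and 0.273.

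The fall of the ratio by day 5 came with members that were lower while the G2 and mitosis genes were less so. At 50 IU/mL of IL-2 the log2 difference of day 5 from day 3 was -1.06 for the summed members and -0.07 for the G2 and mitosis genes, and for IL-2v at that dose it was -0.66 and -0.01. At 5 IU/mL the G2 and mitosis genes were at -1.25 for IL-2 with 41 of 47 at least 2-fold lower, -0.26 for IL-2v with none of 48, and -0.92 for IL-15 with 32 of 47, where the summed members stood at -2.07, -0.91 and -1.27. For IL-15 at 50 IU/mL the G2 and mitosis genes were at -0.62 with 6 of 47, and the summed members at -1.43. Called over the 6 pairs were 21 of 32 members but 2 of 47 G2 and mitosis genes, with medians of -1.16 and -0.48. By day 10 the order was the other way, IL-2 at 50 IU/mL standing at -1.64 for the members and -2.40 for the G2 and mitosis genes against day 5, and IL-15 at -0.30 and -1.34. IL-2v had a higher ratio than IL-2 in 5 of 6 pairs. The exception was 50 IU/mL on day 10 (0.332 against 0.335). The higher dose had the higher ratio on all 3 days for IL-2 and for IL-2v, also on day 10, when its summed level was the lower one, and on 1 of 3 days for IL-15.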

How the data were processed

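The deposited tables held raw UMI counts per gene symbol and cell barcode, 1 table per library, made by the authors; all values were whole numbers. The submitters' processing notes name the mm10 build, Cell Ranger, and Seurat 3.0.2 and 4.0.1. Strand use and removal of doublets are not given in the sources used here. No doublet caller was run. The labels' extraction protocol describes sorted tumour-infiltrating cells and the growth protocol a culture; titles and design text were followed, also where treatment labels read Interleukin-3 or Interleukin-16. Day 7 was not analysed here.

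Members and lists were chosen with earlier results of these data known. Cells under 1000 UMIs, under 500 genes or above 10% mitochondrial UMIs were left out, 2 cells in all. UMIs were summed per library and scaled to CPM. Differences of single genes used log2(CPM + 1) and a level of 20 CPM in either arm. Differences of sums used log2 of the CPM with nothing added. Genes were called at a log2 difference of 1, in several pairs with the same sign in all and a median of 1. Genes named were the highest member per role by mean CPM, the 4 highest and 4 lowest members per comparison, the 3 highest and 3 lowest other replication genes for IL-2v against IL-2, and the 5 non-members most like the sum, 1 of which is not reported here. TMM factors came from edgeR 4.0.16. The code was tested on simulated data. Alternatives are given in the closing section.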

Additional observations from a re-analysis of the deposited data

How the results depend on the processing

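Counts of members called are given with, in brackets, the count as reported and the share of all genes called in the same direction under that setting. The cause of each change was not tested. Among cells with no UMI of Mki67 or Top2a, the count was 3 at activation (29, 7.86%) and 3 without cytokine from day 3 to day 5 (28, 4.99%). Against no cytokine on day 3 it was 16 for 50 IU/mL IL-2 (0, 11%), 4 for 5 IU/mL IL-2v (0, 0.576%), 30 for 50 IU/mL IL-2v (6, 16.6%) and 1 for 50 IU/mL IL-15 (0, 1.33%). On day 5 it was 3 for 50 IU/mL IL-2 (13), of which 2 were higher (13.7%) and 1 lower (8.97%), 0 for 5 IU/mL IL-2v (17, 6.52%), 10 for 50 IU/mL IL-2v (28, 14.8%), and 0 for IL-15 at 5 (3, 0.421%) and at 50 IU/mL (6, 4.09%). It was 7 for IL-2v against IL-2 (12, 0.573%), 7 for IL-2v against IL-15 (3, 2.07%), and 1 for the dose of IL-2 (0, 4.85%) and of IL-2v (0, 2.98%). With at most 5% mitochondrial UMIs it was 2 for 50 IU/mL IL-2 on day 3 (0, 7.98%) and 1, lower, for day 10 against day 5 (0, 2.1%). With the mean of single-cell CPM it was 1 for 50 IU/mL IL-2 on day 3 (0, 6.64%), 1 and 3 for 5 and 50 IU/mL IL-15 on day 5 (3 and 6, 0.854% and 5.48%), and 12 for IL-2v against IL-15 (3, 3.48%). TMM scaling gave 3 for 50 IU/mL IL-2v on day 3 (6, 4.87%), 7 for IL-2v against IL-2 (12, 0.621%) and 1 for IL-2v against IL-15 (3, 1.51%). It moved the median log2 difference of all genes for 50 IU/mL IL-2v on day 3 from 0.21 to 0.01. A pseudocount of 10 gave 2 for 50 IU/mL IL-2v on day 3 (6, 4.38%), 10 for 5 IU/mL IL-2v on day 5 (17, 6.8%), 0 and 2 for 5 and 50 IU/mL IL-15 on day 5 (3 and 6, 0.642% and 3.77%), 1 for IL-2v against IL-2 (12, 0.154%), 1 for IL-2v against IL-15 (3, 0.809%) and 13 for day 5 against day 3 (21, 0.778%). With no level filter, which tests more genes, day 5 gave 1, lower, for 5 IU/mL IL-2 (0, 0.285%), 20 for 50 IU/mL IL-2 (13, 11.5%), and 10 and 13 for 5 and 50 IU/mL IL-15 (3 and 6, 1.16% and 4.75%). Without cells above 2 times the median UMIs it was 0 for 5 IU/mL IL-15 on day 5 (3, 0.726%), 16 for IL-2v against IL-15 (3, 3.86%) and 1 for the dose of IL-15 (0, 1.31%), whose share of positive cells was then higher in 2 pairs (1) and lower in 1 (0). Scaling to totals that leave out ribosomal protein and mitochondrial genes gave 7 for 5 IU/mL IL-15 on day 5 (3, 2.09%) and 1 for IL-2v against IL-15 (3, 1.69%). IL-2v against IL-15 gave 16 without day 3 (3, 6.33%) and 1 without day 5 (3, 1.35%), and IL-2v against IL-2 gave 5 without day 5 (12, 0.482%) and 3 without day 10 (12, 0.437%). The dose of IL-2 gave 1, lower, without day 5 (0, 5.45%) and 7 without day 10 (0, 5.86%), that of IL-2v 1 without day 10 (0, 2.4%) and that of IL-15 2 without day 5 (0, 1.29%). Summed levels that changed sign on the log2 scale were those of 5 IU/mL IL-2 on day 3 against no cytokine (0.05), at -0.045 with TMM and -0.0062 without ribosomal protein and mitochondrial genes, and 50 IU/mL IL-15 there (-0.05), at 0.0040 with 5% mitochondrial UMIs. Without cells above 2 times the median UMIs they were IL-15 against IL-2 at 5 IU/mL on day 10 (-0.66), at 0.026, and the dose of IL-15 on day 5 (-0.15), at 0.27. Without Mki67 and Top2a UMIs they were IL-15 against no cytokine, at 0.10 and 0.30 for 5 and 50 IU/mL on day 3 (-0.06 and -0.05) and at -0.13 and -0.31 on day 5 (0.49 and 0.34). IL-15 against IL-2 at 5 IU/mL on day 10 was then at 0.29, the dose of IL-15 on day 10 at -0.43 (0.33), and 5 IU/mL IL-15 on day 10 against day 5 at 0.24 (-0.78). Of the 166 differences of single members that were called, 14 changed sign in cells without Mki67 and Top2a UMIs and none under the 8 other settings of cells, scaling, pseudocount and filter. With 1 library a condition, depth limits the rarest members most, such as Cdc6 and E2f8, listed at 0 UMIs in 1 library.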
